A study of Mus musculus with 4 samples.

Results

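The comparison set a control KPC tumour against suture-ligated, inflamed mouse pancreas, each measured as 1 single-cell RNA library. Every barcode with at least 500 UMIs (unique molecular identifiers, which count captured RNA molecules), at least 250 genes and at most 20% of its UMIs from mitochondrially encoded genes was kept. That left 1124 cells of ligated pancreas and 21398 cells of tumour, 22522 of the 44162 kept cells of the whole series. In both groups the pancreas had been tied off at mid-pancreas with a suture, which blocks the duct and gives pancreatitis. KPC cells, a mouse pancreatic cancer cell line, were placed into the ligated pancreas for the tumour group, which then received saline into the abdomen once a week, and tissue was taken at 4 weeks. No injection is stated for the ligated group. The other libraries were normal pancreas and KPC tumour given AF12198, a peptide that blocks the interleukin-1 receptor IL1R1, and their levels are given beside some genes. Mouse strain, sex and age, the clone of the KPC line and any pooling of animals were not stated in the descriptions read for this work. With 1 library on each side there was no test of any difference: intervals below are 95% intervals of counting error only, and a gene is called higher or lower where its level differed by 2-fold or more.

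In a healthy pancreas most cells are acinar cells, which make digestive enzymes, with ducts that drain them and islets that make hormones. Blocking the duct injures the acini, and fibroblasts, ducts and leukocytes then fill much of the tissue. A pancreatic carcinoma grows within a dense stroma of fibroblasts and collagen and attracts many myeloid cells, above all macrophages and neutrophils. Interleukin-1 is a cytokine of such myeloid cells that acts on fibroblasts through IL1R1.

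Over all kept cells the 2 libraries had nearly the same median depth, 2216 UMIs in ligated pancreas and 2166 in tumour. Their totals were very different, at 5315805 and 91746734 UMIs. In each of the 7 cell classes compared below, tumour cells had the higher median. It was 3873 and 15835 UMIs in epithelial-like cells, 1061 and 3053.5 in macrophage-like cells, and 904 and 1381 in neutrophil-like cells. The lowest deposited UMI total of a barcode was 500 in ligated pancreas and 760 in tumour. Mitochondrially encoded genes held 1.91% of UMIs in ligated pancreas and 6.02% in tumour, and Gm42418, a locus that overlaps ribosomal RNA, held 14.96% and 4.51%. Of the barcodes, 4 occurred in both libraries. The Y-linked gene Ddx3y was at 167 CPM (UMIs of the gene per 1000000 UMIs) in ligated pancreas and 293 CPM in tumour, whereas Xist, the RNA of the inactive X chromosome, had 5 and 26 UMIs.

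Leukocytes made up most of the tumour library and a minority of the ligated one. Cells were clustered and named from marker genes, so each class is "like" the cell type it is named after. Leukocyte classes together held 321 of 1124 cells in ligated pancreas, 28.6% with an exact Clopper-Pearson interval of 25.9% to 31.3%, and 16692 of 21398 in tumour, 78.0% (77.4% to 78.6%). The shares depended on the cell filter in ligated pancreas: at 1000 UMIs, 500 genes and at most 10% mitochondrial UMIs they were 16.9% and 78.4%, and at 760 UMIs, the lowest total in tumour, 22.1% and 78.0%. Leukocyte classes carried 11.4% and 56.7% of all UMIs. Neutrophil-like cells were 8.90% of ligated pancreas and 27.0% of tumour, a share 3.03 times as high (interval 2.49 to 3.74). Macrophage- and monocyte-like cells were 12.4% and 24.9%, and T-like cells 5.43% and 14.4%. Dendritic-like cells numbered 6 (0.534%) and 993 (4.64%). B-like cells numbered 2 and 730, and NK-like cells 1 and 425. Plasma-like cells differed little in share, at 0.979% (interval 0.490% to 1.74%) and 1.46% (1.31% to 1.63%), so their intervals overlapped.

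The structural cells showed the opposite order over all kept cells. Epithelial-like cells were 31.0% of ligated pancreas and 3.53% of tumour, and fibroblast-like cells 25.6% and 7.08%. The epithelial-like share leaves out an unnamed cluster, 3.71% of tumour cells and 0 ligated cells, whose best match was the epithelial marker list. Endothelial-like cells of blood vessels were 8.27% and 2.43%, and lymphatic endothelial-like cells 3.47% and 0.547%. Without leukocyte classes, erythroid-like and unnamed cells, 797 ligated and 3158 tumour cells remained. Of these, fibroblast-like cells were 36.1% and 47.9%, and blood endothelial-like cells 11.7% and 16.5%, both higher in tumour. Epithelial-like cells were 43.7% and 23.9% of them, and lymphatic endothelial-like cells 4.89% and 3.70%. Acinar-like cells were few in both, 9 cells in ligated pancreas and 64 in tumour. Erythroid-like cells (394) and mesothelial-like cells (85) were found in tumour alone. For 0 of 1124 ligated cells the Clopper-Pearson interval reaches a share of 0.328%. Because shares sum to the whole library, fewer structural cells and more leukocytes cannot be told apart here, and at library level neither can fewer cells of a type and less RNA per cell.

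**Figure D1:**
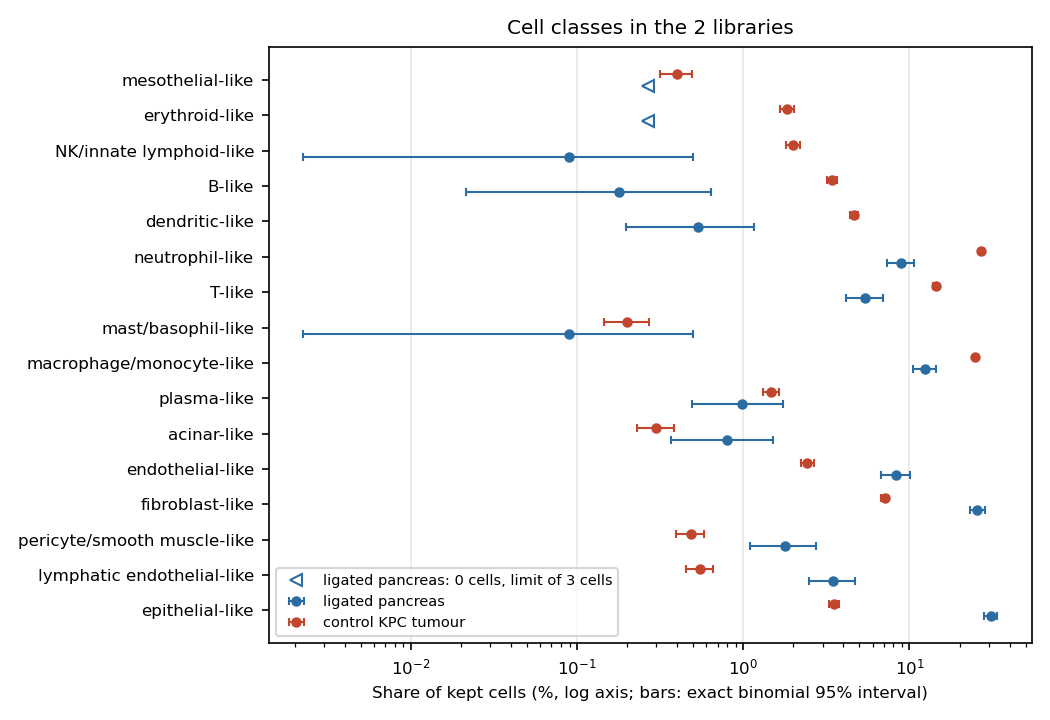
Share of kept cells in each cell class (horizontal log axis, %) for ligated pancreas (blue) and control KPC tumour (red), with exact binomial 95% intervals as bars and open triangles for classes with 0 ligated cells. Neutrophil-like cells stand at 8.90% and 27.0%, epithelial-like cells at 31.0% and 3.53%.

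The same class name did not always cover the same cells. Of the 348 ligated epithelial-like cells, all fell in 1 duct-type cluster, which held 118 tumour cells, while the other 637 tumour cells of the class formed a cluster with no ligated cell. A further cluster of 793 tumour cells, 3.71% of that library, was led by Lgals2, Cldn18, Cdh17 and Msln. It held 0 ligated cells and a median mitochondrial share of 11.5%. Of 11 epithelial markers 6 were raised in it, but it stayed unnamed because Msln, a mesothelial marker, and no listed epithelial one stood among its 10 leading genes. Neutrophil-like tumour cells lay mostly (64.4%) in a cluster that held 9 ligated cells, and ligated neutrophil-like cells mostly (90 of 100) in another that held 1786 tumour cells. Fibroblast-like cells shared a cluster of 106 ligated and 1035 tumour cells, beside a cluster of mostly ligated cells (178 and 76) and one of mostly tumour cells (4 and 403). Macrophage-like cells shared a cluster of 111 and 2258 cells. T-like cells of ligated pancreas lay mostly in a cluster of 52 ligated and 740 tumour cells. Values in the cluster shared best are given for many of the genes below. Clusters were formed from expression, so a smaller difference inside a shared cluster can come in part from that choice of cells. Blood endothelial-like cells were 1 cluster.

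Over whole libraries, 9893 genes reached a mean of 10 CPM. Of these, 1230 were higher in tumour, 12.4% of those measured, and 1702 were lower, 17.2%. The median log2 ratio of all measured genes was -0.08. When 7 classes with at least 25 cells in both libraries were given the same weights in both, 733 genes (7.41%) were higher and 1026 (10.4%) were lower. Of the genes higher over whole libraries, 491 (39.9%) were also higher at equal class weights, and of those lower, 883 (51.9%) were also lower. Only 11 genes changed from higher to lower, and 1 from lower to higher. These weights rest on an epithelial-like class that was duct-type in ligated pancreas and mostly not duct-type in tumour.

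Immunoglobulin heavy chain and haemoglobin genes had the largest ratios on the tumour side. Ighg2c, an IgG heavy chain, was at 0.188 CPM (1 UMI) in ligated pancreas and 1024 CPM in control tumour, a ratio of 5443 (977 to 214973). The haemoglobin gene Hbb-bs was at 0.178 CPM in normal pancreas, 0 UMIs in ligated pancreas, 2139.8 CPM in control tumour and 924 CPM in AF12198-treated tumour, at least 3791.5-fold higher in control tumour than in ligated pancreas against a floor of 3 UMIs. In tumour 61.7% of Hbb-bs UMIs lay in erythroid-like cells, yet 41.1% of all tumour cells held at least 1, including 286 CPM in epithelial-like cells and a lowest class level of 148 CPM. The part of such free RNA in other ratios was not tested. The IgA heavy chain Igha was at 1.505 CPM (8 UMIs) in ligated pancreas, 2669.8 CPM in control tumour and 557 CPM in AF12198-treated tumour, and had 0 UMIs in normal pancreas. Few cells held a large part of these UMIs: 30 tumour cells held 50% of the Igha UMIs, 15 held 50% of the Ighg2c UMIs, and 49.5% of tumour cells carried at least 1 Igha UMI. The kappa light chain Igkc, by contrast, was already at 2684 CPM in ligated pancreas against 7311 CPM in tumour, where 2 and 82 cells held 50% of its UMIs. The ratio was 1774 for Igha (8 ligated UMIs) and 2.72 for Igkc, and the ligated library held 11 plasma-like cells.

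Other genes on the tumour side included ones of its epithelium, its immature neutrophils and its acinar-like cells. Cldn18, a claudin of gastric-type epithelium, had 0 UMIs in normal pancreas, 0.376 CPM (2 UMIs) in ligated pancreas, 153 CPM in control tumour and 37.1 CPM in AF12198-treated tumour. The tumour to ligated ratio was 407 (113 to 3363). Lgals2, a galectin, was at 0.445 CPM in normal pancreas, 0 UMIs in ligated pancreas, 118 CPM in control tumour and 151 CPM with AF12198, at least 209-fold higher in control tumour than in ligated pancreas. Ngp, a granule protein of immature neutrophils, rested on 2 UMIs in ligated pancreas (0.376 CPM) and stood at 121 CPM in tumour, where 98.5% of it lay in neutrophil-like cells and 10 cells held 50%. Reg3b, a secreted lectin of stressed pancreas, was at 4.89 CPM in ligated pancreas, 174 CPM in control tumour and 1044 CPM with AF12198, and 12 tumour cells held 50% of it. It was the leading gene of the acinar-like cluster, which held 9 ligated and 64 tumour cells. Each of these 4 genes was lower in normal and ligated pancreas than in both tumour libraries.

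On the ligated side the leading gene came from a handful of islet cells. Glucagon, Gcg, was at 67.1 CPM in normal pancreas, 3602 CPM in ligated pancreas, 0.501 CPM in control tumour and 0.349 CPM with AF12198. A single ligated cell held over 50% of its 19147 UMIs there. Only 5 ligated cells and 3 tumour cells had 5% or more of their UMIs in islet hormone genes, and each of the 3 tumour ones passed that mark with Ins1 and also with Ins2. Ins2 was at 60.2 CPM in ligated pancreas and 192 CPM in tumour, with 98.5% of the tumour UMIs in those 3 cells. Without the hormone-rich cells Ins1 and Ins2 were lower in tumour, at log2 ratios of -2.79 and -3.50. The clustering had placed 7 of the 8 hormone-rich cells in the duct-type cluster.

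**Figure D2:**
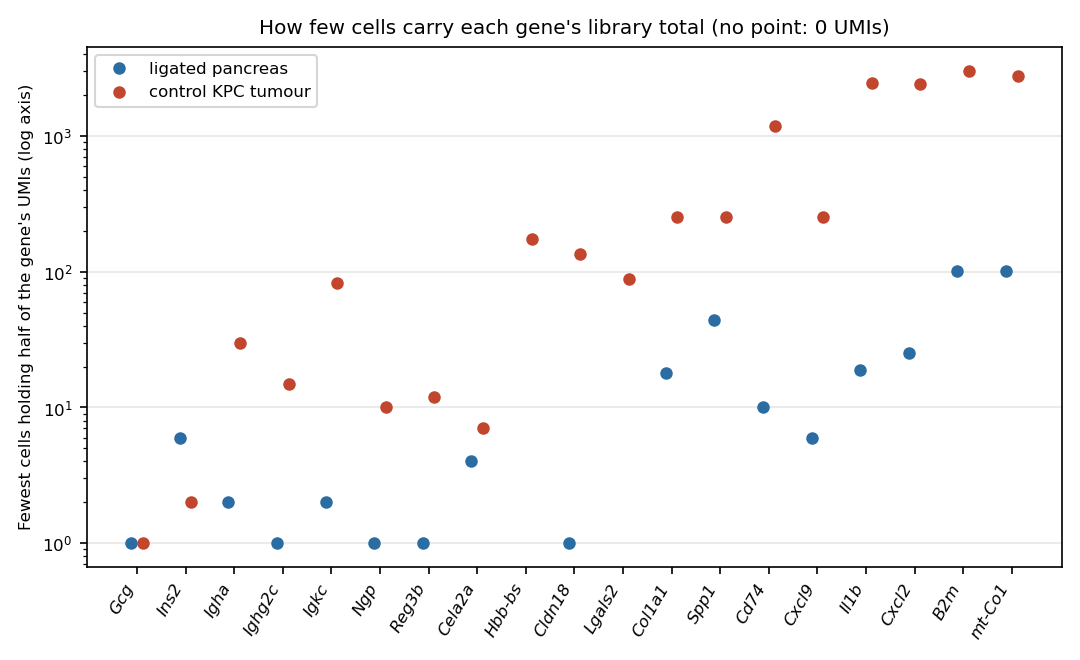
Fewest cells that hold 50% of a gene's UMIs (vertical log axis, cells) in ligated pancreas (blue) and control KPC tumour (red), for 19 genes. Gcg and Ighg2c rest on 1 ligated cell each, whereas 101 ligated and 3032 tumour cells hold 50% of the B2m UMIs.

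Duct genes were lower over the whole tumour library, which held a smaller share of duct-type cells (0.551% against 31.0%). Dcdc2a, a ciliary protein of duct cells, was at 687 CPM in normal pancreas, 268 in ligated pancreas, 4.99 in control tumour and 4.54 with AF12198. Pkhd1, the fibrocystin of the primary cilium, stood at 340, 213, 4.19 and 2.56 CPM in the same order. Dcdc2a was 53.7-fold and Pkhd1 50.8-fold lower in control tumour than in ligated pancreas. Onecut1, a duct transcription factor, was 77.9-fold lower in tumour, whereas Onecut2, its paralogue, was 4.04-fold higher (interval 3.54 to 4.62). Fgfr3, a fibroblast growth factor receptor, was 100-fold lower at 203 and 2.03 CPM, and Ces1d, a carboxylesterase, was at 276 and 2.91 CPM. Of 13 measured duct transport and cilium genes, 9 were lower and 0 higher, with a median log2 ratio of -2.53, and of 15 epithelial junction genes 13 were lower and 0 higher, at -3.39. At equal class weights the medians were -1.43 and -2.26.

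Inside the duct-type cluster alone the tissues were closer. Of 13 duct genes 4 were lower and 0 higher (median 0.18), and of 15 junction genes 1 was lower and 1 higher (median -0.42). Cells were placed in this cluster by their expression, and Pkhd1, Onecut1, Dcdc2a and the junction gene Dsg2 were among its leading genes. Closeness of duct and junction genes inside it is thus partly set by that choice of cells. It cannot show whether these genes differed in tumour epithelium outside the cluster. Of all 5675 genes measured in that cluster, 7.70% were higher in tumour and 5.43% lower. Epcam, the epithelial adhesion molecule, was at 727 CPM in the 348 ligated cells and 706 CPM in the 118 tumour cells, against 727 and 105 CPM over the whole epithelial-like class. Dcdc2a stood at 613 and 420 CPM there, short of 2-fold. Onecut1 was still 3.09-fold lower and Pkhd1 3.30-fold lower in the duct-type cells of the tumour. Vim, the intermediate filament of mesenchymal cells, was 3.75-fold higher in those cells, at 85.8 and 321 CPM, and stood at 2534.7 CPM over the tumour's whole epithelial-like class. Of the 118 tumour cells of the cluster, 25 were called doublets, and of the 348 ligated ones 0. The part of doublets and of free RNA in the values of this cluster was not tested.

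The epithelial-like class as a whole differed in what it contained. Of 5666 genes measured in it, 970 (17.1%) were higher in tumour and 1005 (17.7%) lower. Gastric-type genes were among the higher ones. Cldn18 was at 1 UMI (0.433 CPM) and 709 CPM, a ratio of 1636 (294 to 64609), and Ctse, the gastric protease cathepsin E, at 0 UMIs and 173 CPM. Cdkn2a, a tumour suppressor locus, had 0 ligated UMIs and 327 CPM in tumour, at least 252-fold. Plac8 was at 4.33 and 1345 CPM and Anxa8, an annexin, at 0.433 CPM (1 UMI) and 154 CPM. Cell cycle genes showed 13 of 14 measured members higher, with a median log2 ratio of 4.52. Their ligated counts were small: Top2a, the topoisomerase of dividing cells, had 13 UMIs (5.63 CPM) against 134 CPM in tumour. Glycolysis and hypoxia genes were higher in 14 of 19, median 1.77, with the lactate dehydrogenase gene Ldha at 52.0 and 629 CPM and the pyruvate kinase gene Pkm at 64.6 and 844 CPM. In the duct-type cluster Ldha was at 52.0 and 187 CPM, 5 of 14 measured glycolysis genes were higher and 1 lower, and the list's median was 0.36.

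Among mesenchymal genes in the epithelial-like class, Vim, the matrix protein Fn1 and S100a4 were each over 20-fold higher, with Fn1 at 21.7 and 595 CPM. Heat shock genes were lower in 7 of 15 and higher in 2 over the class, but 0 of 16 passed 2-fold in the duct-type cluster. The small heat shock protein gene Cryab was at 160 and 9.59 CPM in the class and at 160 and 107 CPM in that cluster. The immediate-early transcription factor Jun was at 4585 and 580.5 CPM in the class and at 4585 and 3345 CPM in the cluster. Egr1, another of them, was 3.56-fold lower in the class and 1.52-fold higher in the cluster, where 6 of 20 immediate-early genes were higher and 0 lower. Acute phase and complement genes were higher in the duct-type cells of the tumour, 6 of 6 and 8 of 9, beside 7.70% of all genes measured there. The complement component C3 was at 125 and 1414 CPM there, the iron-binding Lcn2 at 181 and 1421 CPM, and the trefoil peptide Tff2 at 32.1 and 2416 CPM.

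Collagen genes were lower over the whole tumour library and differed by under 2-fold for the main type I and III chains in its fibroblasts. Col1a1, a chain of type I collagen, was at 156 CPM in normal pancreas, 5499.6 in ligated pancreas, 2199.8 in control tumour and 767 with AF12198. That is 2.50-fold lower in control tumour than in ligated pancreas. In fibroblast-like cells alone it was at 15002 CPM and 12648 CPM, a ratio of 0.84, and in their shared cluster at 20658 and 13226 CPM. Col3a1 was likewise 2.58-fold lower over whole libraries and at 14342 and 11729 CPM in fibroblast-like cells. Of 15 measured fibrillar and associated collagens, 9 were lower and 1 higher over whole libraries (median -1.21), but 1 lower and 2 higher at equal class weights (median -0.13).

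Of 4705 genes measured within fibroblast-like cells, 364 (7.74%) were higher in tumour and 165 (3.51%) lower. Contractile genes, which mark myofibroblasts, were higher in 6 of 12 and lower in 0, with a median of 0.97 beside 0.22 for all genes of the class. Tagln, transgelin, was at 103 CPM in ligated and 515 CPM in tumour fibroblast-like cells, and Acta2, smooth muscle actin, at 124 and 453 CPM. In the cluster shared best by both libraries the differences were smaller: Tagln 154 and 304 CPM, Acta2 180 and 312 CPM, both under 2-fold. Col8a1, a short-chain collagen, was 6.67-fold higher in the class (88 and 586 CPM, with 169 ligated UMIs) and 2.63-fold higher in the shared cluster. Timp3, an inhibitor of matrix proteases, was 5.98-fold higher in the class and 3.87-fold higher in the shared cluster. Aldh1a2, which makes retinoic acid, was 6.70-fold and 7.41-fold higher. Spp1, osteopontin, was 18.5-fold higher in the class, at 91.0 and 1683 CPM, and 5.03-fold higher in the shared cluster. That ligated level was the lowest of any ligated class of at least 25 cells. The lowest level of a tumour class of at least 100 cells was 199 CPM. Over whole libraries Spp1 was 2.61-fold lower in tumour, at 4657 and 1784 CPM.

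Genes of resting, adventitial-type fibroblasts were lower in 7 of 16 and higher in 1. Gsn, the actin-severing protein gelsolin, was at 896 CPM in normal pancreas, 3084 in ligated pancreas, 533 in control tumour and 279 with AF12198, and in fibroblast-like cells at 8318 and 1365 CPM, 6.09-fold lower. In the shared cluster it was at 3248 and 1545 CPM, 2.10-fold lower. Abca8a, a lipid transporter, was 7.39-fold lower in the class and 1.91-fold lower in the shared cluster. Inmt, a methyltransferase, was 15.7-fold lower in the class, at 129 and 8.21 CPM. The exception was Igfbp4, a binding protein of insulin-like growth factors, at 1545 and 4393 CPM, and at 1739 and 5284 CPM in the shared cluster. The mostly ligated fibroblast cluster held 61.8% of ligated and 5.02% of tumour cells of the class.

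**Figure D3:**
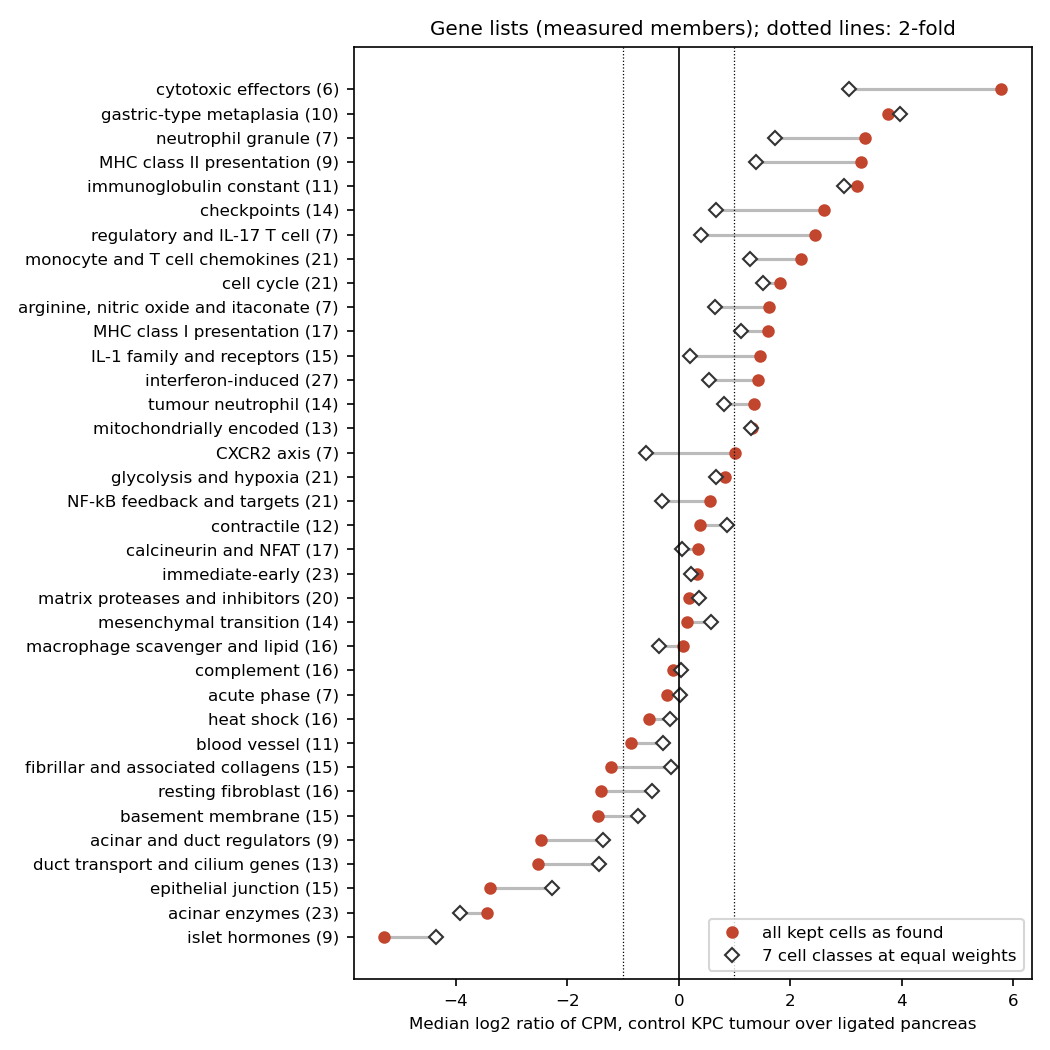
Median log2 ratio of CPM, control KPC tumour over ligated pancreas (horizontal axis), for each gene list with at least 5 measured members, as the cells were found (red circles) and with 7 cell classes at equal weights (open diamonds). Collagens stand at -1.21 and -0.13, the CXCR2 axis at 1.01 and -0.58, and mitochondrially encoded genes at 1.31 and 1.30.

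Interleukin-1 family genes were higher over the whole tumour library, 9 of 15 measured against 1 lower, with a median log2 ratio of 1.46. At equal class weights 4 were higher and 3 lower, with a median of 0.20. Of all measured genes, 12.4% were higher and 17.2% lower over whole libraries, and 7.41% and 10.4% at equal class weights. Il1b, the cytokine interleukin-1 beta, was at 7.74 CPM in normal pancreas, 493 in ligated pancreas, 3039 in control tumour and 3405 with AF12198. The ratio of control tumour to ligated pancreas was 6.16 (5.93 to 6.40). Neutrophil-like cells held 79.9% of the Il1b UMIs in ligated pancreas and 45.5% in tumour. Within neutrophil-like cells it did not differ by 2-fold, at 15239 CPM in the 100 ligated and 13530 CPM in the 5776 tumour cells, a ratio of 0.89. Macrophage-like cells differed, with 774 and 3592 CPM, 4.64-fold higher in tumour, and 2.11-fold higher in their shared cluster. Il1rn, the receptor antagonist, was at 115 and 1179 CPM over whole libraries (10.3-fold), 531 and 1833 CPM in macrophage-like cells and 2465 and 4396 CPM in neutrophil-like cells. Il1a, interleukin-1 alpha, was 4.01-fold higher in neutrophil-like cells, at 153 (21 UMIs) and 613 CPM, and 5.18-fold higher in their shared cluster (15 ligated UMIs). Il1r1, the receptor that AF12198 blocks, was lower over the whole tumour library at 77.3 and 33.7 CPM, and fibroblast-like cells held 70.8% and 73.4% of its UMIs. At equal class weights the Il1r1 ratio was 0.86.

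Chemokines that act through CXCR2 on neutrophils showed a like split. Cxcl2 was 3.85-fold higher over the whole tumour library, at 942 and 3630 CPM, and 1.34-fold higher in neutrophil-like cells, at 12752 and 17076 CPM, with 1.55-fold in the shared cluster. Cxcl1 was lower at 527 and 251 CPM, with fibroblast-like cells as its main source in both. Cxcr2 itself was 2.01-fold higher over the whole library (1.71 to 2.39) but 2.65-fold lower within neutrophil-like cells, at 1018 and 384 CPM. In their shared cluster Cxcr2 was at 1059.7 and 579.6 CPM, short of 2-fold. Csf3r, the receptor of the neutrophil growth factor G-CSF, was also higher over the whole library, at 56.6 and 149 CPM, and lower in neutrophil-like cells, at 1927 and 922 CPM. In the shared cluster Csf3r was 1.55-fold lower, at 1989 and 1285 CPM. Of 7 measured CXCR2 axis genes, 4 were higher and 1 lower over whole libraries, with a median of 1.01, whereas at equal class weights 0 passed 2-fold in either direction and the median was -0.58.

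**Figure D4:**
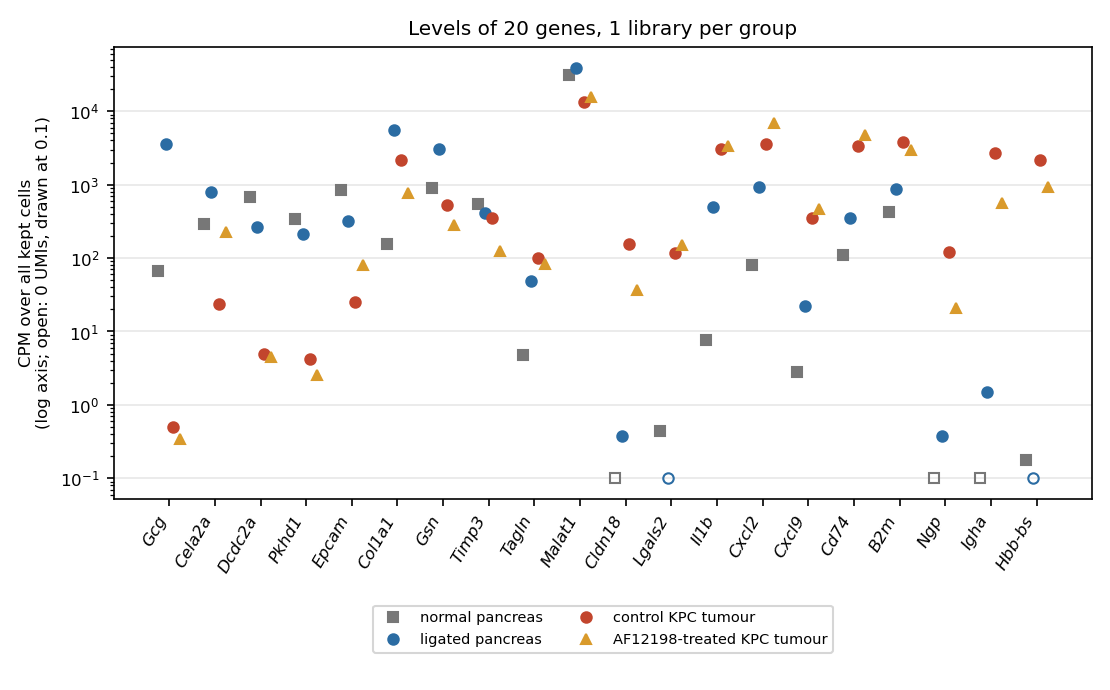
CPM over all kept cells (vertical log axis) of 20 genes in 4 libraries, 1 per group: normal pancreas (grey squares), ligated pancreas (blue), control KPC tumour (red) and AF12198-treated KPC tumour (yellow triangles), with open symbols at 0.1 for 0 UMIs. Il1b stands at 7.74, 493, 3039 and 3405 CPM, and Gcg at 67.1, 3602, 0.501 and 0.349 CPM, in that order.

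Of 3712 genes measured in neutrophil-like cells, 947 (25.5%) were higher in tumour and 466 (12.6%) lower, on 137544 ligated UMIs. Granule genes of immature cells led, with Ngp at 1 UMI against 1166 CPM, Camp, cathelicidin, at 0 UMIs against 710 CPM (at least 32.6-fold), and Ltf, lactoferrin, at 0 UMIs against 572 CPM (at least 26.2-fold). In the cluster shared best, which held 28 of the 10939 tumour Ngp UMIs of the class, Ngp was at 7.68 CPM (1 UMI) and 10.4 CPM. Siglecf, a sialic acid receptor, was at 3 UMIs (21.8 CPM) against 169 CPM, and Vegfa, a vessel growth factor, at 153 and 742 CPM. In the shared cluster Siglecf was at 1 UMI against 35.1 CPM, Ltf at 0 UMIs against 63.4 CPM, and Vegfa at 154 and 393 CPM. MHC class I genes were higher in 12 of 17 and lower in 0, with a median of 1.43 beside 0.26 for all genes of the class, and H2-K1 at 843 and 2873 CPM, or 822 and 2875 CPM in the shared cluster. On the ligated side stood Stfa1, a stefin, 33.4-fold lower in tumour at 356 and 10.7 CPM, Il1rap, the co-receptor of interleukin-1, at 931 and 151 CPM, and the interferon-inducible Ifitm1 at 2217.5 and 525 CPM. Those 3 genes kept that direction in the shared cluster, where Stfa1 was at 353 and 5.59 CPM.

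Macrophage- and monocyte-like cells differed in 374 higher genes (7.90% of 4736) and 369 lower ones (7.79%). Interferon-induced genes were higher in 11 of 20 and lower in 0, at a median of 1.27 beside -0.03 for all genes. Cxcl9, a T cell chemokine induced by interferon gamma, was at 5 UMIs (15.6 CPM) against 722 CPM, a ratio of 46.3 (19.8 to 143). Gbp2, an interferon-induced GTPase, was at 4 UMIs (12.5 CPM) against 290 CPM, a ratio of 23.2 (9.06 to 85.2). Both were higher in the shared cluster too, Cxcl9 7.84-fold and Gbp2 at 1 UMI against 235 CPM. Scavenger and lipid-handling genes went the other way, 7 of 17 lower and 1 higher. Cd36, a fatty acid and scavenger receptor, was 12.3-fold lower at 356 and 28.9 CPM, and Gpnmb, a glycoprotein of lipid-laden macrophages, 5.12-fold lower at 237 and 46.4 CPM. Trem2, a lipid-sensing receptor, was at 281 and 117 CPM. In the shared cluster Cd36 was 9.59-fold, Gpnmb 7.07-fold and Trem2 3.56-fold lower. Arg1, which breaks down arginine, was 5.65-fold higher over whole libraries, at 37.1 and 209 CPM, and at 284 and 353 CPM in the shared cluster.

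Over whole libraries 18 of 27 interferon-induced genes were higher and 0 lower, with a median log2 ratio of 1.42 that was 0.55 at equal class weights. Within neutrophil-like cells 8 of 24 were higher and 4 lower, at a median of 0.05 beside 0.26 for all genes of the class. Within endothelial-like cells 4 of 20 were higher and 3 lower, at a median of 0.14. The median was 1.27 in macrophage-like, 2.58 in epithelial-like, 0.95 in fibroblast-like, 1.14 in lymphatic endothelial-like and 0.83 in T-like cells. Over all kept cells Gbp2 was at 11.4 CPM in normal pancreas, 26.5 in ligated pancreas, 314 in control tumour and 334 with AF12198. Bst2, tetherin, was at 62.5, 66.2, 206 and 224 CPM in the same order, lower in both libraries without tumour cells. The promoters of these 2 genes are shown because both were higher at either weighting, by 11.8-fold and 3.11-fold over whole libraries and 10.3-fold and 3.14-fold at equal class weights. The sequences are RefSeq promoters of build GRCm38.p6, from 250 bases before to 50 after the start of the gene, written 5′ to 3′ on the gene's strand. Capitals mark the core of the interferon-stimulated response element, searched on both strands as GAAA, any 2 bases and GAAA again, with overlapping matches counted. The Gbp2 promoter lies at chr3:142620413-142620712 on the plus strand and the Bst2 promoter at chr8:71537423-71537722 on the minus strand.
Gbp2: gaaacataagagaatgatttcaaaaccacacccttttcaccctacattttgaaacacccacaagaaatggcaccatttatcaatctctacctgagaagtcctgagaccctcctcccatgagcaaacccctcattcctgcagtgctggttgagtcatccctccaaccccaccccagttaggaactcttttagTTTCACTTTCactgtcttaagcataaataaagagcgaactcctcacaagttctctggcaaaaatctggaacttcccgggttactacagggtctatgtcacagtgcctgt
Bst2: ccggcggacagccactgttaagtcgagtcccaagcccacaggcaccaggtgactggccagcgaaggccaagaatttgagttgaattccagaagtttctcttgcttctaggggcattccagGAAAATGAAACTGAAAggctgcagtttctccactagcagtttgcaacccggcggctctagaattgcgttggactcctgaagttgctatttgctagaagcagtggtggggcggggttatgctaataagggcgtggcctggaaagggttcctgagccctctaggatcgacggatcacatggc
Promoters were matched for 24 of the 30 listed interferon-induced genes, and 15 of them (62.5%) held this core, against 3.99% of 27025 genes with a promoter of the same 300 bases. Among measured members, 9 of 13 with the core were higher in tumour, and 5 of 9 without it. The match describes these letters only.

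The second list with a promoter element was the contractile one. Cnn2, calponin 2, was the measured member with the largest ratio, at 12.9 CPM in normal pancreas, 36.5 in ligated pancreas, 130 in control tumour and 105 with AF12198, 3.56-fold higher in control tumour than in ligated pancreas (3.09 to 4.12). Its promoter, at chr10:79988350-79988649 on the plus strand of the same build, is shown with the CArG box, the element bound by serum response factor, in capitals.
Cnn2: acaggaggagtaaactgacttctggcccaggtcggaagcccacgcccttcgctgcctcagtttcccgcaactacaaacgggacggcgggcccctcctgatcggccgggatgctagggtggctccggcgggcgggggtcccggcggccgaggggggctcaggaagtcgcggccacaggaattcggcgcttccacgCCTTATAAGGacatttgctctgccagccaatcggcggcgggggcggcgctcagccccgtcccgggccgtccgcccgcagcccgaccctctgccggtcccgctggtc
A CArG box was found in 3 of 14 matched contractile genes (21.4%) and in 1.81% of all genes with a promoter. Among measured members with a matched promoter, 1 of 2 with the box was higher in tumour, and 0 of 9 without it. Over whole libraries 2 of 12 measured contractile genes were higher and 1 lower, with a median log2 ratio of 0.38. Of all measured genes 12.4% were higher and 17.2% lower.

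Cd74, the MHC class II invariant chain, was at 110 CPM in normal pancreas, 351 in ligated pancreas, 3389.6 in control tumour and 4713 with AF12198. All 9 measured MHC class II genes were higher in tumour, with a median log2 ratio of 3.27, and 1.39 at equal class weights. Macrophage-like cells, the main source in both libraries, had Cd74 at 4230 and 8186 CPM, under 2-fold. In classes that do not normally present by class II the ratio was larger: fibroblast-like cells had 15.1 and 533 CPM. No tumour class of at least 100 cells had less than 533 CPM of Cd74, and the part of free RNA in these class ratios was not tested. B2m, the light chain of MHC class I, was 4.37-fold higher over whole libraries, at 876 and 3827 CPM, and 13 of 17 class I genes were higher. H2-K1 was at 759 and 2507 CPM. Class I genes were higher in 11 of 16 in epithelial-like cells and 12 of 17 in neutrophil-like cells, but in 3 of 16 in endothelial-like cells, where 2 were lower.

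Other lists were counted over whole libraries and at equal class weights. Of all measured genes, 12.4% were higher and 17.2% lower over whole libraries, and 7.41% and 10.4% at equal class weights. Monocyte and T cell chemokines were higher in 15 of 21 and lower in 1, with a median of 2.20 and of 1.28 at equal class weights. Cxcl9 was at 22.01 and 354 CPM. Fibroblast-like cells held 87.2% of it in ligated pancreas, and macrophage-like cells 50.4% in tumour. NF-kB feedback genes were higher in 8 of 21 (median 0.57), but in 2 of 21 at equal class weights, where the median was -0.29. Ptgs2, the inducible cyclooxygenase, was at 375 and 2091 CPM. Checkpoint genes were higher in 12 of 14 (median 2.61), and in 6 with 1 lower at equal class weights (median 0.67). Cd274, the ligand PD-L1, was at 24.5 and 144 CPM. Cell cycle genes were higher in 19 of 21 at a median of 1.81, and in 16 of 21 at equal class weights. Within macrophage-like cells 0 of 12 measured cell cycle genes were higher and 2 lower, at a median of -0.68. Within T-like cells 9 of 11 were higher and 0 lower, and within endothelial-like cells 8 of 11 and 0. Glycolysis and hypoxia genes were higher in 10 of 21 and lower in 1 over whole libraries, median 0.83. The kinase gene Pgk1 was at 70.5 and 431 CPM. Gastric-type genes were higher in 6 of 10 and lower in 2. Of the 6 higher gastric-type genes, all but Lgals4 rested on 3 or fewer ligated UMIs.

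T-like cells were compared on 61 ligated cells, which carried 59669 UMIs. Of the tumour's T-like clusters, those of 355 and 185 cells held 301 and 140 called doublets. Of 5061 genes, 1077 (21.3%) were higher and 1108 (21.9%) lower. The ligated T-like cells stood out for genes of the interleukin-17 type: Il17a was at 1290.5 CPM (77 UMIs) against 5.66 CPM, 228-fold lower in tumour. Cd163l1, a scavenger receptor of gamma-delta T cells, was at 788 and 3.99 CPM, and Trdc, the delta chain of their receptor, at 452 (27 UMIs) and 13.3 CPM. Within the shared T-like cluster Il17a was at 1231 and 22.1 CPM, Cd163l1 57.3-fold lower and Trdc 8.54-fold lower. Cytotoxic genes lay on the tumour side, with Klrd1 at 2 UMIs against 326 CPM, a ratio of 9.72 (2.69 to 80.3), and in the shared cluster at 2 UMIs against 205 CPM. Over whole libraries all 6 measured cytotoxic genes were higher, Nkg7 at 1.13 CPM (6 UMIs) and 57.3 CPM.

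Blood endothelial-like cells, 93 and 520, had 962 of 5465 genes higher (17.6%) and 956 lower (17.5%). Among them Sele, the adhesion molecule E-selectin, was 9.89-fold lower at 415 and 41.9 CPM, and Selp, P-selectin, was at 2058 and 320 CPM. Apln, apelin, was at 1 UMI (5.25 CPM) against 194 CPM, a ratio of 36.9 (6.59 to 1460). Esm1 was at 12 UMIs (63.0 CPM) against 234 CPM and Angpt2 at 4 UMIs (21.0 CPM) against 132 CPM. Of 18 blood vessel genes measured in these cells, these 5 among them, 3 were higher and 5 lower, with a median log2 ratio of -0.51.

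**Figure D5:**
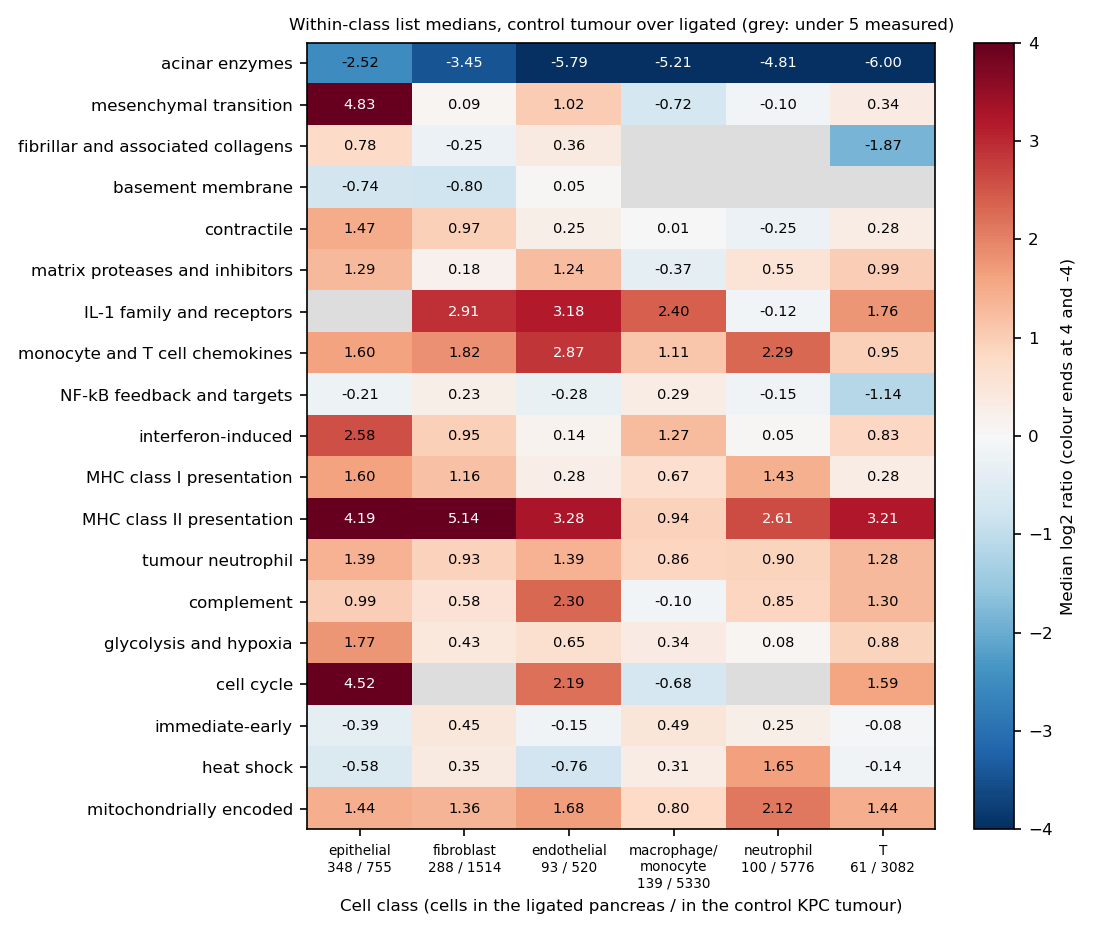
Median log2 ratio within each cell class, control KPC tumour over ligated pancreas, for 19 gene lists (rows) and 6 classes (columns, with ligated and tumour cells), in colour from -4 to 4, with grey where under 5 members were measured. The mesenchymal list stands at 4.83 in epithelial-like cells and 0.09 in fibroblast-like cells, and heat shock genes at 1.65 in neutrophil-like and -0.58 in epithelial-like cells.

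Most measured acinar enzymes were lower, and 0 higher, in each of the 7 classes compared. Of 23 measured, 21 were lower and 0 higher over whole libraries, with a median log2 ratio of -3.44, and Cela2a, a pancreatic elastase, was at 289 CPM in normal pancreas, 801 in ligated pancreas, 23.9 in control tumour and 229 with AF12198. In ligated pancreas 71.7% of Cela2a lay in the 9 acinar-like cells, 4 cells held over 50%, and yet 44.6% of all ligated cells carried at least 1 UMI of it, against 1.41% of tumour cells. Ligated T-like cells, which do not make elastase, had 1559 CPM of it and tumour T-like cells 5.66 CPM. The part of this free acinar RNA in the other ratios was not tested.

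Mitochondrially encoded genes were higher in tumour at both weightings, 9 of 13 measured with a median log2 ratio of 1.31, and 1.30 at equal class weights. Within macrophage- and monocyte-like cells 0 of 13 passed 2-fold, with a median of 0.80. In the other classes compared, 8 to 12 of 13 were higher. The oxidase subunit mt-Co1 was at 4412 CPM in normal pancreas, 3398 in ligated pancreas, 12795 in control tumour and 8339 with AF12198. Malat1, a nuclear RNA, was lower at 39371 and 13261 CPM, and Lars2, a gene whose counts can hold ribosomal RNA reads, at 4031 and 686 CPM. The part of RNA quality in the other ratios was not tested.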

How the data were processed

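Single-cell 3' libraries (10x Genomics v3 chemistry, per the labels' protocols) came from collagenase-digested tissue, 1 library per group. The deposited matrices hold counts of UMIs per gene and barcode, which the authors made with Cell Ranger 6.0.0 against mm10, per the submitters' processing notes; the lowest deposited total was 500 UMIs, and 760 in the control tumour. Counts of all kept cells were summed and divided by the total (CPM). A gene was measured at a mean of 10 CPM (within a class 30 CPM and 10 UMIs over both libraries); a count of 0 was set to a floor of 3 UMIs for ratios. Ratios carry exact conditional 95% intervals and shares Clopper-Pearson intervals; PCR and cell-to-cell variation are not covered, and with 1 library a side no test was run. Cells of both libraries were clustered together (Python 3.11.15, scipy 1.17.1, leidenalg 0.10.2, resolution 1.0) without acinar and Reg genes, left out after free acinar RNA was seen to drive clusters. A cluster could be named where 3 or more markers of a class were 2-fold raised and found in 10% of its cells. This threshold was also set after seeing the data. A cluster stayed unnamed where a second class matched as well or its leading genes were more of another class. So did one with few UMIs and no marker of its class among its leading genes. Scrublet (scanpy 1.11.5) called 2274 tumour and 0 ligated cells doublets; these were kept. Equal class weights used 7 classes, each at its mean share of UMIs.

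Genes were named by rule: the 15 largest ratios each way at 100 CPM or more, the 10 largest CPM differences each way, up to 4 and 2 members per list, and the 8 largest ratios each way within a class; other list members were named after their values were seen. The members and the 39 lists were chosen with earlier results of these data known. Sequences are RefSeq promoters of GRCm38.p6. The ratio code was tested on simulated data. Alternatives are listed in the closing section.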

Additional observations from a re-analysis of the deposited data

Results flagged for a closer look

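Several genes of the lists differed in opposite directions in different cell classes, each by 2-fold or more and with at least 20 UMIs in both libraries. The difference between the classes was not tested, since each library is 1 sample, and the classes differ in their clusters between the libraries. Lgals3, galectin-3, had a log2 ratio of tumour to ligated pancreas of 5.27 in epithelial-like cells (9.97 and 386 CPM) and -1.01 in macrophage-like cells (1043 and 517 CPM). Vim stood at 4.88 in epithelial-like cells and -1.34 in macrophage-like cells, where it was at 1898 and 752 CPM. Timp3, higher in fibroblast-like cells at 2.58, was lower in epithelial-like cells at -3.36 (409 and 39.8 CPM). Hes1, a target of Notch signalling, stood at 1.26 in fibroblast-like cells (154 and 369 CPM) and -3.09 in T-like cells, where the ligated value rests on 24 UMIs. Cxcl5, a ligand of CXCR2, was at 3.11 in epithelial-like cells (20.8 and 179.6 CPM) and -1.19 in fibroblast-like cells (129 and 56.6 CPM). Cd59a, an inhibitor of complement, was at 1.32 in fibroblast-like cells and -2.87 in epithelial-like cells.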

How the results depend on the processing

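Of 184 named genes, 171 had no change of direction from a difference of 2-fold or more under any alternative tried. Changes of sign in named genes under 2-fold were not counted. Col1a2 was such a gene, with log2 ratios of -0.84 over whole libraries and 0.23 at equal class weights. At equal class weights the log2 ratios of Acod1 (-0.34), Adam8 (-0.74), Csf3r (-0.58), Ctsb (-0.0173), Cxcr2 (-0.95), Fabp5 (-0.20), Ifitm1 (-0.62), Pf4 (-0.58) and Retnlg (-0.0932) turned negative and that of Muc1 (0.11) positive. The median of the CXCR2 axis turned negative (-0.58). Ins1 and Ins2 turned negative with every cell weighted equally (-0.89 and -1.80), with called doublets removed (-3.55 and -4.40) and, an alternative chosen after seeing the data, without hormone-rich cells (-2.79 and -3.50), where Chga turned positive (0.10). Counts of genes higher and lower over whole libraries were 733 and 1026 at equal class weights, 599 and 383 at a mean of 50 CPM, 2266 and 8171 at 3 UMIs over both libraries, and 418 and 579 at 4-fold, the last 3 by construction. Other scalings, pseudocounts, cell filters and clustering resolutions left the counts of higher and lower genes over whole libraries and at equal class weights within 1.5 times. So did 2 more alternatives chosen after seeing the data: removing unnamed clusters, for the counts over whole libraries, and leaving out acinar, immunoglobulin and haemoglobin genes, for those at equal class weights. The share of leukocytes in ligated pancreas was 16.9% with the stricter cell filter and 22.1% with a minimum of 760 UMIs, and in tumour 79.0% without doublets and 79.4% at resolution 0.5. Leaving mitochondrial genes, Gm42418 and AY036118 out of the total moved the median log2 ratio by -0.11, and weighting cells equally gave a median of -0.21.

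No paired analysis was possible because each group has 1 library. Ligated classes of 39 to 348 cells limit within-class ratios, above all for T-like and lymphatic endothelial-like cells.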

Other observations

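Lymphatic endothelial-like cells, 39 in ligated pancreas and 117 in tumour, had lower levels of Igfbp5, a binding protein of insulin-like growth factors, at 2214 and 188 CPM, and of Hgf, hepatocyte growth factor, at 440.1 and 49.3 CPM. Their tumour side was led by genes of leukocytes such as Il1r2 (1 ligated UMI, 397 CPM in tumour) and Plek (4 UMIs, 484 CPM), and the part of leukocyte RNA in these cells was not tested.

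The calcineurin and NFAT list, the pathway of the study's title, had 17 measured genes. Over whole libraries 5 were higher and 1 lower, at a median log2 ratio of 0.35. At equal class weights 2 were higher and 1 lower, at a median of 0.07. Of all measured genes, 12.4% were higher and 17.2% lower over whole libraries, and 7.41% and 10.4% at equal class weights. Over whole libraries Nr4a3, an orphan nuclear receptor, was at 137 and 699.5 CPM, Nr4a2 at 152 and 537 CPM, and Egr3 at 53.0 and 127 CPM. Nfatc4, the lower one there, was at 18.8 and 9.28 CPM with fibroblast-like cells as its main source. In T-like cells Nr4a1 and Nr4a3 were lower in tumour, at log2 ratios of -1.21 and -1.12.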
